A study of Danio rerio with 13 samples.

Results

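The genes described here mark the somatic cells of the testis or take part in the synthesis of sex steroids. The set lists insl3, star, hsd3b1, cyp17a1, cyp11c1, hsd17b3 and nr5a1a for Leydig cells and steroid synthesis, and amh, dmrt1 and gsdf for Sertoli cells. Genes were found by symbol, and 9 of the 10 were matched among 32105 genes in the count table. For nr5a1a, 2 identifiers carried the name NR5A1 with no letter to tell the copies apart, so both are given by identifier and neither was counted as a member. Levels are plain CPM, a gene's reads scaled to all counted reads of the library. A 2nd measure, the ratio to the germ cell gene ddx4, was taken in the libraries where ddx4 exceeded 50 CPM.

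The libraries came from muscle of 3-month-old male AB zebrafish. They were 5 wild types, 5 tert+/- fish with a nonsense allele of tert on 1 chromosome and 3 tert-/- fish with that allele on both. The product of tert is the catalytic subunit of telomerase, and the allele is carried in every cell of the fish. No treatment was given, and the sources used here do not say whether the fish were siblings. Library totals ran from 10.6 M to 47.5 M counts, so that 1 count was worth between 0.0211 and 0.0945 CPM. The transcript of tert itself was counted in all libraries, at 4.30 to 7.80 CPM in wild type and 3.25 to 4.63 CPM in tert-/-. In tert+/- it stood at 15.8 CPM in replicate 1 and at 5.24 to 5.71 CPM in the others. The wild type range overlapped those of both mutants, and a nonsense allele can still give RNA. These levels therefore cannot check the labels of single libraries. All 5 muscle genes on a marker list were abundant in every library.

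Leydig cells lie between the tubules of the testis and make androgens, while Sertoli cells line the tubules and support the germ cells. Steroid synthesis starts when cholesterol is moved into mitochondria and is then converted by a chain of enzymes, most of them of the cytochrome P450 and hydroxysteroid dehydrogenase families. Several of these enzymes also work in the interrenal, the adrenal tissue of fish, and none of the cells named is a part of muscle. The genes were thus listed for cells outside muscle, but gsdf and hsd17b3 were found in every library, at no less than 1.95 and 2.81 CPM. In such bulk samples fewer cells of a type and less RNA per cell cannot be told apart.

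The libraries differed widely in the levels of most of these transcripts. The gene ddx4, which encodes an RNA helicase of germ cells, reached 116 CPM in wild type replicate 5, 180 CPM in tert+/- replicate 1 and 426 CPM in tert-/- replicate 1, with at most 3.71 CPM in the other 10 libraries. These 3 libraries, 1 of each genotype, are called ddx4-high below. They were set apart by their own transcripts, so differences between them and the other 10 are descriptions without a test. Their TMM scaling factors (trimmed mean of M-values) were 1.07, 2.03 and 2.30 against 0.771 to 0.922 elsewhere, and the 5 muscle genes summed to 209300, 136600 and 194700 CPM against 225200 to 268500 CPM elsewhere. Of these genes only actc1b was below the other 10 in all 3 libraries, at 66520, 52570 and 73370 CPM against at least 89630 CPM. In tert+/- replicate 1 each of the genes was below. In wild type replicate 5 pvalb4 was above, at 35300 CPM against at most 32830 CPM. What part the lower sum had in the levels below was not tested.

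**Figure D1:**
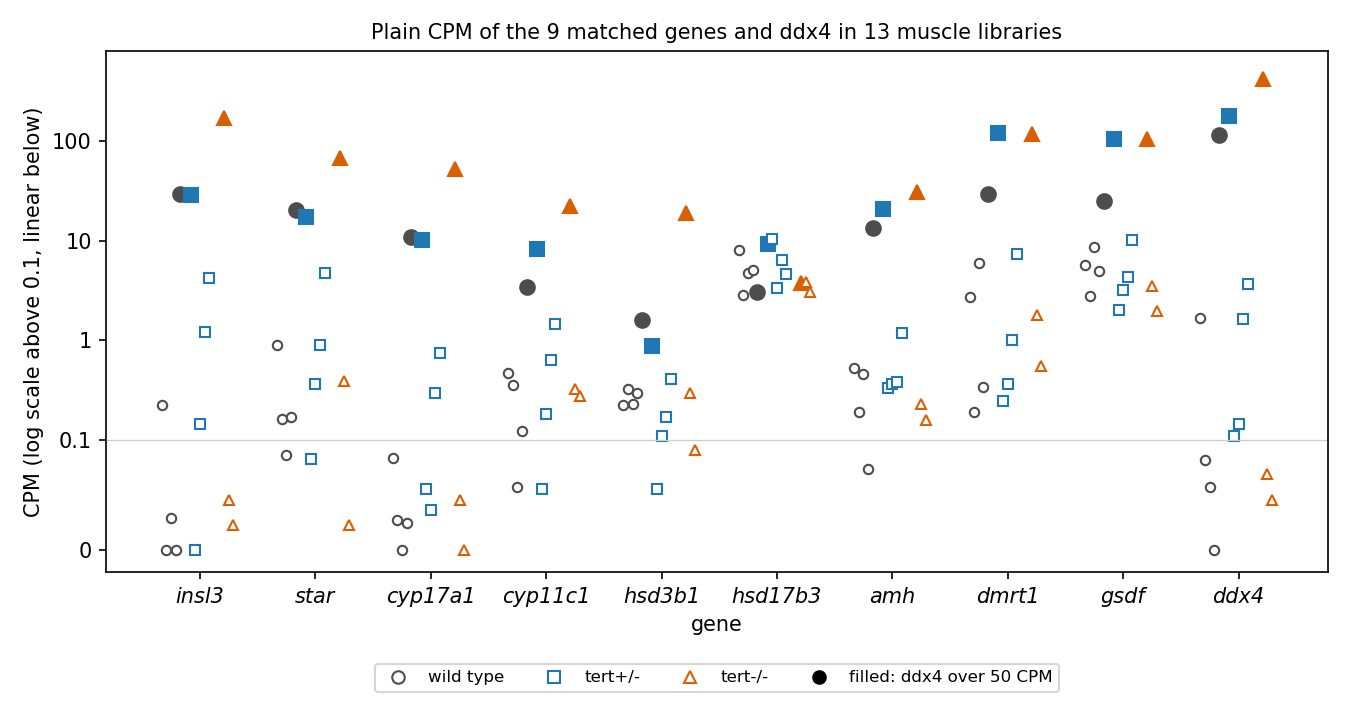
Plain CPM of the 9 matched genes and of ddx4 in each of the 13 libraries, on an axis that is logarithmic above 0.1 CPM and linear below. Each point is 1 library, its shape and colour give the genotype, and filled points are the libraries with ddx4 over 50 CPM. Filled points lie above all open points for 8 of the 9 genes, and hsd17b3 is the exception.

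Of the 9 genes, 8 were higher in each ddx4-high library than in any of the other 10. Over all 19407 genes tested, 32.2% were placed in this way on plain CPM. With TMM factors 7 of the 9 genes and 17.3% of all genes were placed so, and the gene that dropped out was hsd3b1, at 0.430 CPM in tert+/- replicate 1 against at most 0.481 CPM elsewhere. Without any 1 of the 3 libraries the count on plain CPM was again 8. Leaving out a ddx4-high library could not lower this count, since the same other 10 libraries were compared.

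The hormone gene insl3 encodes insulin-like peptide 3, a product of Leydig cells. Its levels were 0.221, 0, 0.0287, 0 and 29.2 CPM in wild type replicates 1 to 5. The tert+/- libraries held 28.95, 0, 0.145, 1.20 and 4.196 CPM in replicates 1 to 5, and the tert-/- libraries 170 CPM, 0.0457 CPM and 0.0227 CPM in replicates 1 to 3. Within each genotype 1 library was far above the rest, and 3 libraries held no insl3 read, which allows up to 3 counts, or 0.0812, 0.0730 and 0.0823 CPM in wild type replicates 2 and 4 and tert+/- replicate 2. The lowest ddx4-high library was 6.90 times the highest of the other 10. That highest library was tert+/- replicate 5, with 154 counts, and tert+/- replicate 4 came next with 57 counts.

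The gene star encodes the protein that carries cholesterol to the inner membrane of mitochondria. Its levels were 0.885, 0.162, 0.0860, 0.170 and 20.4 CPM in wild type replicates 1 to 5. The tert+/- libraries held 17.5, 0.0823, 0.362, 0.884 and 4.71 CPM in replicates 1 to 5, and the tert-/- libraries 68.6, 0.389 and 0.0227 CPM in replicates 1 to 3. Unlike insl3, star was counted in every library, and the ranges of the genotypes overlapped. The lowest ddx4-high library was 3.71 times the highest of the others, tert+/- replicate 5.

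The gene cyp17a1 encodes the hydroxylase and lyase that leads from progestins to androgens. In the ddx4-high libraries it stood at 10.96 CPM in wild type replicate 5, 10.2 CPM in tert+/- replicate 1 and 53.2 CPM in tert-/- replicate 1. In the others it did not exceed 0.736 CPM, with a median of 0.0410 CPM and no read in wild type replicate 3 or tert-/- replicate 3. Its gap of 13.9 times between the lowest ddx4-high library and the highest of the rest was the widest among the 9 genes, and that of amh followed at 11.5 times.

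The gene cyp11c1 encodes the hydroxylase that fish use both for their main androgen and for cortisol. Its levels were 3.40, 8.24 and 22.1 CPM in the ddx4-high wild type, tert+/- and tert-/- libraries, and 0.0549 to 1.44 CPM in the others, with a median of 0.296 CPM. It was counted in every library. The gap was 2.36 times.

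The gene hsd3b1 encodes the dehydrogenase that forms progesterone and other ketosteroids. It differed most among the ddx4-high libraries, with 1.61 CPM (17 counts) in wild type replicate 5, 0.871 CPM (13 counts) in tert+/- replicate 1 and 18.8 CPM (548 counts) in tert-/- replicate 1. The other 10 libraries held 0.0549 to 0.409 CPM, with a median of 0.225 CPM. Only the tert-/- library was thus far above the background of the other muscle libraries, and the lowest of the 3 was 2.13 times the highest of the rest.

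The gene hsd17b3 encodes the reductase that forms testosterone in the testis of mammals. Its levels were 7.996, 2.81, 4.73, 5.08 and 3.02 CPM in wild type replicates 1 to 5. The tert+/- libraries held 9.31, 10.3, 3.33, 6.40 and 4.58 CPM in replicates 1 to 5, and the tert-/- libraries 3.74, 3.86 and 3.08 CPM in replicates 1 to 3. The ddx4-high libraries lay among the others for this gene, and its highest value was that of tert+/- replicate 2. The mean (± SD) over the 5 wild types was 4.73 ± 2.08 CPM, that over the 5 tert+/- libraries 6.78 ± 2.99 CPM and that over the 3 tert-/- libraries 3.56 ± 0.420 CPM, with overlapping ranges.

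Of the 2 identifiers named NR5A1, genes of the nuclear receptor family that switches on steroid enzymes, both were low. ENSDARG00000103176 held 0.567, 0.737 and 3.29 CPM in the ddx4-high wild type, tert+/- and tert-/- libraries and at most 0.126 CPM elsewhere. ENSDARG00000023362 held 0.756, 0.335 and 0.995 CPM in the same order and at most 0.0723 CPM elsewhere. Both stood highest in tert-/- replicate 1, and the latter rested on 8, 5 and 29 counts.

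Of the Sertoli cell genes, amh encodes anti-Müllerian hormone. Its levels were 0.5257, 0.189, 0.459, 0.0730 and 13.5 CPM in wild type replicates 1 to 5. The tert+/- libraries held 20.6, 0.329, 0.362, 0.379 and 1.17 CPM in replicates 1 to 5, and the tert-/- libraries 30.5 CPM, 0.229 CPM and 0.159 CPM in replicates 1 to 3. Every library held some amh reads, from 3 counts upward, and the ddx4-high libraries were closer to each other for amh than for insl3.

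The gene dmrt1 (ENSDARG00000007349) encodes a transcription factor of male gonad fate, found in Sertoli and germ cells. Its levels were 2.74, 0.189, 5.90, 0.341 and 29.6 CPM in wild type replicates 1 to 5. The tert+/- libraries held 122, 0.247, 0.362, 1.01 and 7.30 CPM in replicates 1 to 5, and the tert-/- libraries 118, 1.78 and 0.544 CPM in replicates 1 to 3. Here tert+/- replicate 1 and tert-/- replicate 1 stood at nearly the same level, and outside the ddx4-high libraries values spread from 0.189 to 7.30 CPM.

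The gene gsdf encodes gonadal soma derived factor, a growth factor of the TGF-beta family made by the supporting cells of fish gonads. Its levels were 5.73, 2.76, 8.60, 4.94 and 25.03 CPM in wild type replicates 1 to 5. The tert+/- libraries held 106, 2.004, 3.22, 4.32 and 10.1 CPM in replicates 1 to 5, and the tert-/- libraries 107, 3.48 and 1.95 CPM in replicates 1 to 3. No library fell below 73 counts, so gsdf and hsd17b3 were the genes of the set with a level of over 1 CPM in all 13 libraries. The lowest ddx4-high library was 2.48 times the highest of the rest for gsdf and 4.05 times for dmrt1.

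To set genes beside each other, CPM was divided by the gene length in kilobases that the deposited values imply. On this scale insl3 led the Leydig and steroid genes in each ddx4-high library, at 31.3, 31.1 and 183 CPM per kb in the wild type, tert+/- and tert-/- library. It was followed by star at 14.8, 12.7 and 49.8 CPM per kb, and then by cyp17a1 at 3.92 CPM per kb in the wild type library and 19.0 CPM per kb in the tert-/- library. In the tert+/- library the 3rd place fell to hsd17b3 (3.82 CPM per kb), with cyp17a1 (3.64) and cyp11c1 (3.31) close behind. Among the Sertoli genes gsdf stood highest at 18.6, 79.0 and 79.4 CPM per kb, above dmrt1 at 8.54, 35.4 and 34.0 and amh at 4.17, 6.36 and 9.42. The germ cell gene ddx4 stood at 40.0, 62.0 and 146 CPM per kb, so that it was above insl3 in the wild type and tert+/- libraries and below it in the tert-/- library.

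Ratios to ddx4 were taken to compare the counts of these genes with those of a germ cell gene within each ddx4-high library. Of the Sertoli genes, dmrt1 is also found in germ cells, so sums and ratios that include it are not purely somatic. It held 313 of 721, 1826 of 3718 and 3428 of 7423 summed Sertoli counts in the ddx4-high wild type, tert+/- and tert-/- libraries. All ratios are of counts with exact 95% intervals that cover counting error only, and with 1 library of each genotype a difference between them is one between libraries, not genotypes. The 6 Leydig and steroid synthesis genes together gave 0.589 counts per ddx4 count (0.537 to 0.646) in wild type replicate 5, 0.416 (0.388 to 0.446) in tert+/- replicate 1 and 0.791 (0.770 to 0.812) in tert-/- replicate 1. The 3 Sertoli genes gave 0.585 (0.533 to 0.642), 1.38 (1.31 to 1.45) and 0.598 (0.581 to 0.616) in the same order. The tert+/- library was thus lowest for the sum of one group of genes and highest for that of the other, by more than counting error in both.

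**Figure D2:**
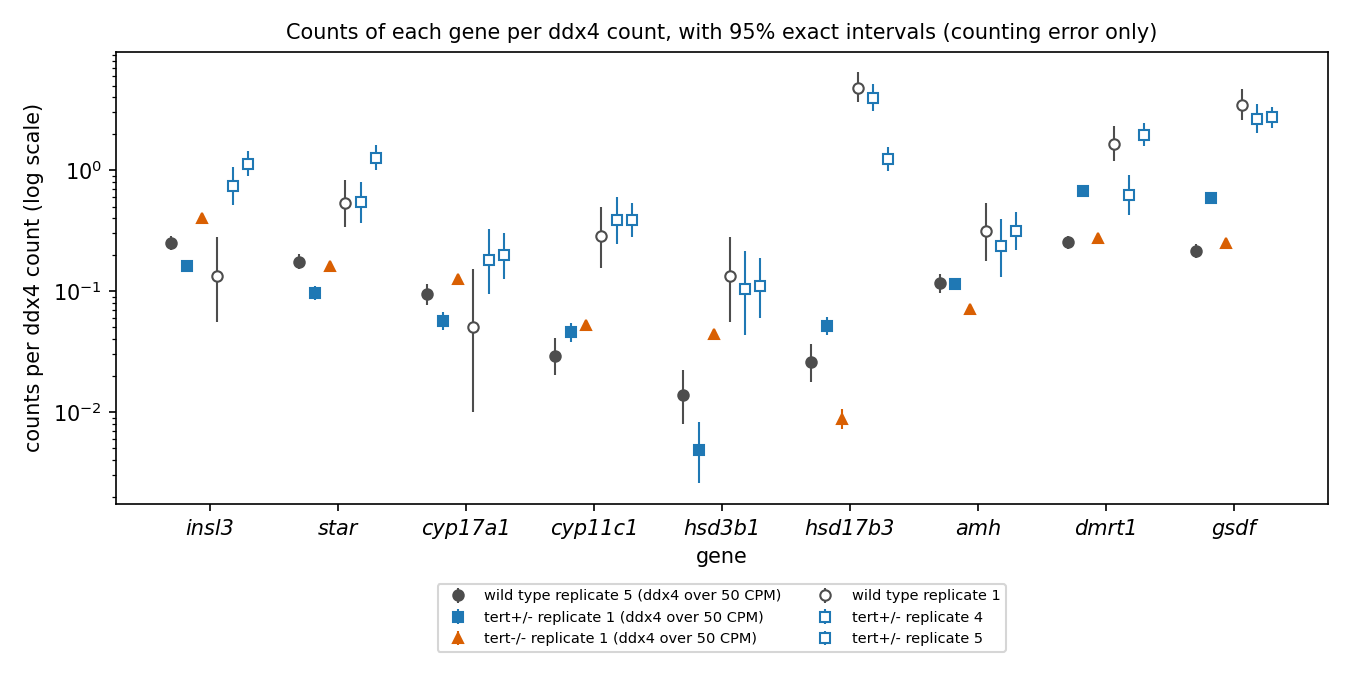
Counts of each gene per count of ddx4 on a logarithmic axis, with exact 95% intervals for counting error. Filled points are the 3 libraries with ddx4 over 50 CPM and open points the 3 other libraries with at least 50 ddx4 counts. Among the filled points hsd3b1 and hsd17b3 spread most and amh least.

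By gene, insl3 gave 0.251 (0.221 to 0.284), 0.161 (0.145 to 0.178) and 0.400 (0.387 to 0.414) counts per ddx4 count in the ddx4-high wild type, tert+/- and tert-/- libraries. The ratio of star was 0.175 (0.151 to 0.203), 0.0970 (0.0851 to 0.110) and 0.161 (0.154 to 0.169). For star the wild type and tert-/- intervals overlapped, whereas for insl3 all 3 were apart. The ratio of cyp17a1 was 0.0941 (0.0771 to 0.114), 0.0565 (0.0476 to 0.0665) and 0.125 (0.118 to 0.132), ordered as for insl3. That of cyp11c1 was not so ordered, at 0.0292 (0.0204 to 0.0407), 0.0457 (0.0378 to 0.0548) and 0.0520 (0.0480 to 0.0563), lowest in the wild type library.

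The largest spread was that of hsd3b1, whose highest ratio, 0.0442 (0.0405 to 0.0481) in the tert-/- library, was 9.15 times its lowest, 0.00483 (0.00257 to 0.00827) in the tert+/- library. For hsd17b3 the order was turned, with 0.0516 in the tert+/- library and 0.00879 in the tert-/- library, a spread of 5.88 times in a gene whose CPM did not follow ddx4. The other genes spread from 1.62 times for amh to 2.74 times for gsdf.

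Within the ddx4-high libraries, some genes kept to each other more closely than to ddx4. The counts of dmrt1 per gsdf count were 1.18 (0.9996 to 1.396), 1.15 (1.08 to 1.23) and 1.10 (1.05 to 1.16) in the ddx4-high wild type, tert+/- and tert-/- libraries, a spread of 1.07 times with overlapping intervals. The counts of cyp17a1 per insl3 count were 0.375 (0.301 to 0.4662), 0.352 (0.291 to 0.424) and 0.312 (0.295 to 0.331), a spread of 1.20 times, again with overlapping intervals. Of the 10 pairs of genes compared, which were picked with the levels known, these had the smallest spreads. In the other 10 libraries dmrt1 per gsdf ran from 0.0686 to 0.722, below all ddx4-high libraries, and cyp17a1 per insl3 was 0.246 (0.126 to 0.446) in tert+/- replicate 4 and 0.175 (0.112 to 0.265) in tert+/- replicate 5.

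The ratio of insl3 to amh, hormones of Leydig and Sertoli cells, was 2.16 (1.77 to 2.65), 1.403 (1.21 to 1.63) and 5.58 (5.19 to 5.995), a spread of 3.97 times. The 5 Leydig and steroid genes without hsd17b3 gave 0.963 (0.866 to 1.07), 0.264 (0.246 to 0.283) and 1.31 (1.27 to 1.35) counts per count of the 3 Sertoli genes, a spread of 4.95 times. The tert+/- library was lowest in both ratios. Within the Sertoli genes amh also moved apart from the other two, with 2.19, 5.93 and 3.85 dmrt1 counts per amh count.

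Within the steroid genes, hsd3b1 per star was 0.0787 (0.0450 to 0.129), 0.0498 (0.0262 to 0.0867) and 0.274 (0.249 to 0.302), so that only the tert-/- library stood apart from the others. The ratio of star to insl3 was 0.699 (0.585 to 0.834), 0.604 (0.516 to 0.706) and 0.403 (0.382 to 0.424), with the tert-/- library lowest. The ratio of cyp11c1 to cyp17a1 was 0.310 (0.207 to 0.455), 0.809 (0.633 to 1.03) and 0.416 (0.379 to 0.457), with the tert+/- library highest. Each of these ratios placed 1 library outside the intervals of the other two.

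The germ cell gene in the denominator mattered. Against sycp3, a gene of meiotic chromosomes, the 3 Sertoli genes gave 1.61 (1.43 to 1.82), 1.66 (1.57 to 1.75) and 1.75 (1.69 to 1.82) counts per count in the ddx4-high wild type, tert+/- and tert-/- libraries, a spread of 1.09 times with overlapping intervals. Against ddx4 the same spread was 2.36 times, and against piwil1, a gene of the germ line that silences transposons, it was 2.77 times. The Leydig and steroid genes did the opposite, with a spread of 1.90 times against ddx4, 1.58 times against piwil1 and 4.65 times against sycp3. The excess of the summed Sertoli genes in the tert+/- library was therefore seen per ddx4 and per piwil1 but not per sycp3. It was one of dmrt1 and gsdf. For amh the ratios were 0.116, 0.114 and 0.0717 per ddx4 and 0.107, 0.1025 and 0.0535 per piwil1, with no excess over wild type. Per sycp3 amh spread 2.33 times, against 1.16 times for dmrt1 and 1.24 times for gsdf. Its ratios per sycp3 were 0.319 (0.2625 to 0.386), 0.137 (0.121 to 0.1545) and 0.210 (0.195 to 0.226), lowest in the tert+/- library. The low sum of Leydig and steroid genes in this library was seen with all 3 denominators. For cyp11c1, however, the tert+/- ratio was not the lowest per ddx4 or per piwil1, and that of hsd17b3 was the highest in both.

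The other 10 libraries held traces of the same genes. In wild type replicate 1 and in replicates 4 and 5 of tert+/-, ddx4 had 60, 77 and 136 counts, enough for a ratio, and this selection was made after the values were seen. Counts of insl3 per ddx4 count were 0.133 in wild type replicate 1, 0.740 in tert+/- replicate 4 and 1.13 in tert+/- replicate 5. Counts of star per ddx4 count were 0.533, 0.546 and 1.27 in the same order. The ratios of tert+/- replicates 4 and 5 were above those of all ddx4-high libraries for both genes, and those of wild type replicate 1 only for star.

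Over the 10 libraries summed, amh gave 0.498 counts per ddx4 count, dmrt1 2.62 and gsdf 6.14. Each of these was above the ratio in any ddx4-high library, where the highest were 0.116, 0.678 and 0.588. Both gsdf and hsd17b3 (6.91 summed) were also counted where ddx4 was not. In wild type replicate 4, where ddx4 had no read, gsdf had 203 counts and hsd17b3 had 209.

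**Figure D3:**
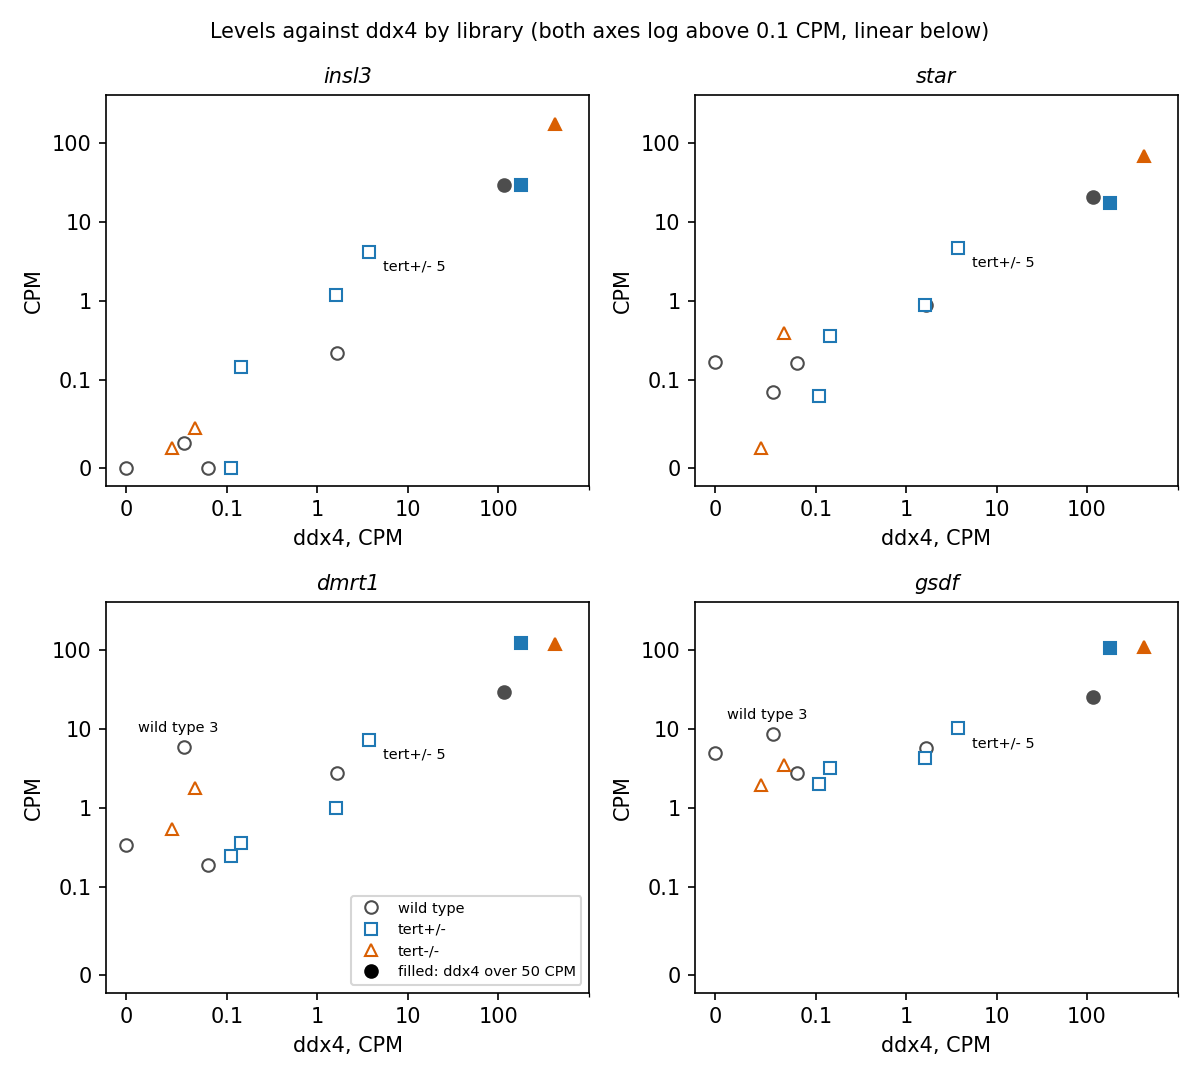
Plain CPM of insl3, star, dmrt1 and gsdf against that of ddx4, with both axes logarithmic above 0.1 CPM and linear below. Each point is 1 of the 13 libraries, and filled points have ddx4 over 50 CPM. Wild type replicate 3 stands at 5.90 CPM of dmrt1 and 8.60 CPM of gsdf with ddx4 at 0.0573 CPM, while its insl3 and star lie among the low libraries.

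Outside the ddx4-high libraries, the highest value of 8 of the 9 genes was that of tert+/- replicate 5, and hsd17b3 was again the exception. Wild type replicate 3 carried a different mix. It held 206 counts of dmrt1 and 300 of gsdf, but 16 of amh, 3 of star, 2 of ddx4 and 1 of insl3. Its 12.9 (7.74 to 22.95) dmrt1 counts per amh count lay above the 2.19 to 5.93 of the ddx4-high libraries. So did the 7.8 (4.02 to 16.9) of tert-/- replicate 2, with an overlapping interval, and the 6.23 (4.504 to 8.81) of tert+/- replicate 5. The tert-/- library held 78 counts of dmrt1 and 152 of gsdf, with 3 of ddx4 and 2 of insl3. Next to tert+/- replicate 5, wild type replicate 3 had the highest dmrt1 and gsdf outside the ddx4-high libraries, with ddx4, insl3 and star near 0. Its hsd17b3, at 4.73 CPM, was like that of other libraries. Its inha, at 0.573 CPM, was above the median of 0.108 CPM over the 10 libraries that were not ddx4-high. The germ cell gene SYCP1 was counted in all 10, and its 1.72 CPM here was below their median of 2.625 CPM. No test was made of this single library.

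Wider lists of related genes were counted in the same way. Of 22 matched genes of Leydig cells and gonadal steroid synthesis, 12 lay above the other 10 libraries in all 3 ddx4-high ones, and 7 of these were not among the 9 genes. This stands beside 32.2% of the 19407 genes tested. That share leaves out genes too low to be tested, whereas the lists count every matched gene. The most abundant gene of that list, HSD11B2, which inactivates cortisol and forms the main fish androgen, was expressed throughout at 125.5, 162 and 129 CPM in the ddx4-high libraries and 52.9 to 245.5 CPM elsewhere. Both identifiers named CYP11A1, the enzyme of the first step from cholesterol, lay above, at 0.661, 0.737 and 3.50 CPM for ENSDARG00000002347 and 2.27, 0.871 and 4.39 CPM for ENSDARG00000092696, against at most 0.191 and 0.164 CPM elsewhere. The ferredoxin gene fdx1b, which passes electrons to that enzyme in zebrafish, reached 1.79, 1.41 and 5.46 CPM against at most 0.109 CPM. CYP11A1, fdx1b and the gene inha below were picked for the text after their values were seen.

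Of 12 matched Sertoli genes 7 lay above, 4 of them outside the 9 genes, again beside 32.2% of the genes tested. ALDH1A2, which makes retinoic acid, was expressed in all libraries, with 29.1, 67.3 and 98.8 CPM in the ddx4-high ones and 21.6 to 56.5 CPM elsewhere. The inhibin gene inha, which is on the Leydig and steroid list, reached 1.70, 2.68 and 13.6 CPM, and wild type replicate 3 held 0.573 CPM of it. Among 4 matched receptor genes 1 was placed so, beside 32.2% of the genes tested. FSHR, the receptor of follicle stimulating hormone, lay above, at 0.283, 0.335 and 1.79 CPM against at most 0.0272 CPM. The luteinizing hormone receptor gene lhcgr did not, with 0.472, 0.134 and 1.24 CPM and up to 0.315 CPM in wild type replicate 3. The oestrogen receptor gene ESR1 stood at 0.283, 0.871 and 1.24 CPM, and its highest level elsewhere was 0.545 CPM, in wild type replicate 3. The 12 germ cell genes all lay above, beside 32.2% of the genes tested. The libraries were chosen by ddx4, 1 of these genes, so this count is not independent of that choice.

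Markers of other organs that make steroids were low in these libraries. The 6 matched genes of the interrenal and chromaffin cells summed to 1.13, 2.14 and 6.11 CPM in the ddx4-high wild type, tert+/- and tert-/- libraries and 0.0227 to 0.687 CPM elsewhere. Most of that sum was cyp17a2, at 0.661, 1.14 and 4.87 CPM, an enzyme gene that is also known from the gonad. Of the 6, 2 lay above, beside 32.2% of the genes tested, but only 1 of the 6 was itself tested. The cyp21a2 gene, 1 of these 2, rested on 1 count in each of the ddx4-high wild type and tert+/- libraries. Defining markers were under 1 CPM, as were FSHR and lhcgr in the ddx4-high wild type and tert+/- libraries. The corticotropin receptor gene mc2r stood at 0, 0.670 and 0.584 CPM against at most 0.0545 CPM elsewhere, so that it was higher in the ddx4-high tert+/- and tert-/- libraries. Its partner gene mrap stood at 0.283, 0.0670 and 0.172 CPM (at most 0.0723 elsewhere), and the cortisol enzyme gene cyp21a2 at 0.0945, 0.0670 and 0.309 CPM (at most 0.0553). What part such cells had in the levels of the steroid genes was not tested. The catecholamine enzyme gene TH stood at 0, 0.0670 and 0.0687 CPM. The highest level of TH, 0.506 CPM, was in tert+/- replicate 3, outside the ddx4-high libraries. The 5 matched ovary genes summed to 1.795, 3.35 and 3.88 CPM against 0.109 to 0.719 CPM elsewhere. Of these, GDF9 (0.472, 0.603 and 1.20 CPM) and ZAR1 (0.756, 0.469 and 0.927 CPM) lay above, which is 2 of 5 beside 32.2% of the genes tested. The gene bmp15 (0.378, 1.41 and 1.06 CPM) did not, and the egg coat gene zp2.2 was at 0, 0 and 0.137 CPM.

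To ask which genes ran most like insl3 and amh over the 13 libraries, 24026 genes were ranked by the SD of the log2 ratio of their CPM to that of the target, with a pseudocount of 0.5. The 3 most like insl3 were EFHC2 (SD 0.545), rnf17 (0.545) and TDRD1 (0.575). For amh they were CDK2 (0.249), PPIL6 (0.255) and mkrn4 (0.265). The choice depends on the pseudocount, since with 0.1 none of the 3 genes was retained for either target. The values of 1 library share its depth, and all of these genes were highest in the ddx4-high libraries.

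Between the genotypes, the study compared tert-/- and tert+/- with wild type. In neither comparison was any of the 9 genes called by edgeR's quasi-likelihood test at an adjusted p under 0.05 over all 19407 genes tested, and percent called over all genes was 0 in both. At an unadjusted p under 0.05 there were 496 genes (2.56%) in tert-/- and 557 (2.87%) in tert+/-, with 1 of the 9 genes (hsd3b1) in the first and 0 in the second. DESeq2 called 0 genes as well, and had 656 and 733 genes at an unadjusted p under 0.05. It gave no p for insl3, cyp17a1, hsd3b1, amh and dmrt1 in either comparison, so it could not call these. All 9 genes passed the filter on low counts, with and without the ddx4-high libraries. On the wider lists, 21 of 22 Leydig and steroid genes and 9 of 12 Sertoli genes were tested, and 0 were called in either direction in either comparison.

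In tert-/- against wild type, 8 of the 9 fold changes were positive with a median of 1.33 on the log2 scale, beside −0.03 over all genes. The fitted log2 fold change was 2.21 (SE 2.37) for insl3, 1.33 (SE 1.88) for star, 1.97 (SE 2.18) for cyp17a1 and 2.07 (SE 1.4) for cyp11c1. It was 2.46 (SE 1.08) for hsd3b1, with an unadjusted p of 0.0413 in edgeR, and −0.76 (SE 0.49) for hsd17b3. For the Sertoli genes it was 0.75 (SE 1.69) for amh, 1.25 (SE 1.78) for dmrt1 and 0.84 (SE 1.09) for gsdf. All 9 had adjusted p = 0.992 with edgeR, and the standard errors were about as large as the changes or larger for all but hsd3b1, cyp11c1 and hsd17b3.

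Without the 3 ddx4-high libraries, 1 of the 9 fold changes in tert-/- against wild type was positive, that of cyp11c1 at 0.28 (SE 1.07). Among the others insl3 stood at −0.76 (SE 2.32), star at −0.70 (SE 1.51) and gsdf at −1.01 (SE 0.63). Adjusted p was 0.9998 for each in edgeR, with 0 of 17970 genes called, and none of the 9 was among the 3.39% of all genes at an unadjusted p under 0.05. The direction seen with all 13 libraries thus turned for 7 of the 9 genes. That for hsd17b3, whose plain CPM did not follow ddx4, was −0.55 (SE 0.45) and did not turn. Leaving out tert-/- replicate 1 alone turned 8 genes, with insl3 at −6.90, and leaving out wild type replicate 5 alone gave 8.57 for insl3. Without wild type replicate 5, 6 of the 9 genes and 1726 of 18297 genes had an unadjusted p under 0.05, and the lowest adjusted p in edgeR was 0.527. Of the wider lists, 15 of 21 Leydig and steroid genes were positive in tert-/- with all libraries (median 0.58). Without the ddx4-high ones 5 of 16 were positive (median −0.27). For Sertoli genes these were 7 of 9 (median 0.75) and 0 of 6 (median −0.81). For germ cell genes they were 11 of 11 (median 1.625) and 1 of 9 (median −1.27). Over all genes 47.65% and 47.2% were positive. The fit without the ddx4-high libraries held only replicates 2 and 3 of tert-/-.

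**Figure D4:**
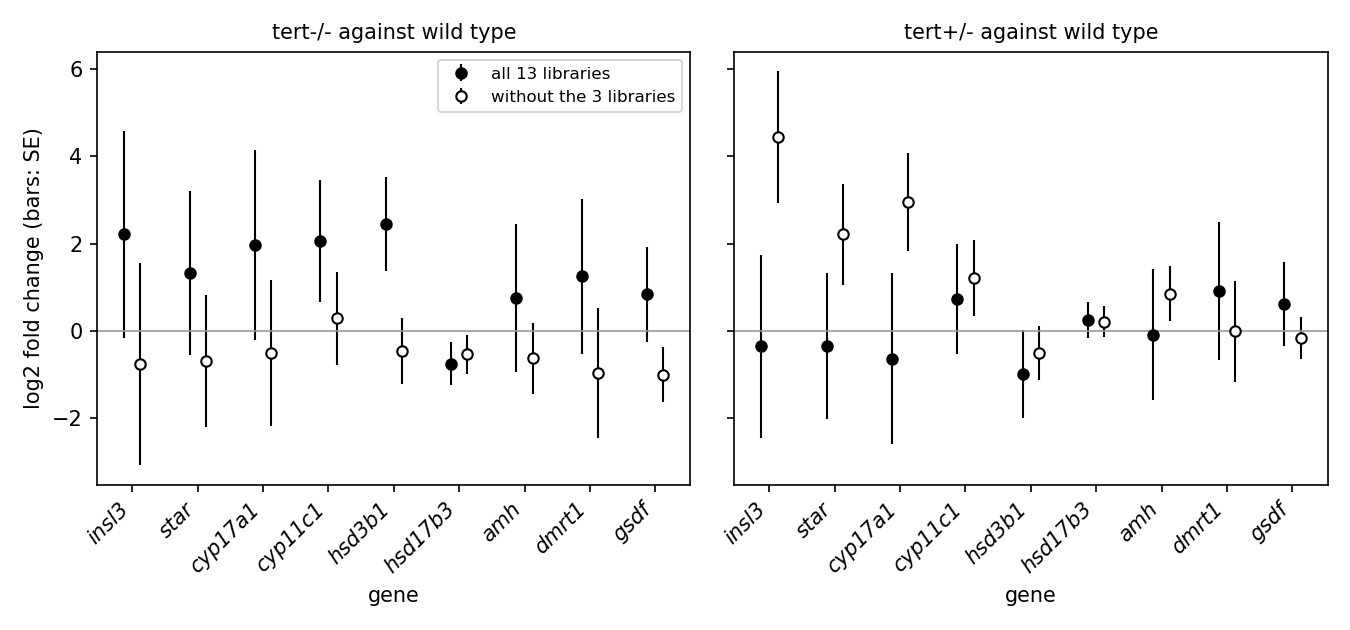
Log2 fold changes of the 9 genes from edgeR in tert-/- against wild type on the left and tert+/- against wild type on the right, with bars of 1 SE. Filled points use all 13 libraries and open points leave out the 3 with ddx4 over 50 CPM. Filled and open points lie on opposite sides of 0 for 7 genes on the left and 6 on the right.

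In tert+/- against wild type, 4 of the 9 fold changes were positive with a median of −0.09, beside 0.00 over all genes. The log2 fold change was −0.36 (SE 2.11) for insl3, −0.35 (SE 1.68) for star, −0.64 (SE 1.97) for cyp17a1, 0.72 (SE 1.26) for cyp11c1, −1.003 (SE 1.01) for hsd3b1 and 0.24 (SE 0.41) for hsd17b3. It was −0.09 (SE 1.501) for amh, 0.91 (SE 1.59) for dmrt1 and 0.62 (SE 0.97) for gsdf. Adjusted p was 0.9999 for each with edgeR.

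Without the ddx4-high libraries, insl3 stood at 4.44 (SE 1.52) and cyp17a1 at 2.96 (SE 1.12) in tert+/- against wild type, with unadjusted p of 0.0145 and 0.0239 and adjusted p = 0.552 for both in edgeR. These 2 of the 9 genes compare with 8.96% of all 17970 genes at an unadjusted p under 0.05, and 0 genes were called. The insl3 levels behind this were 0, 0.145, 1.20 and 4.196 CPM in the 4 remaining tert+/- libraries and 0.221, 0, 0.0287 and 0 CPM in the 4 wild types, so the groups overlapped and tert+/- replicates 4 and 5 carried the difference. In the same libraries ddx4 was at 0.110, 0.145, 1.62 and 3.71 CPM in tert+/- and 1.66, 0.0812, 0.0573 and 0 CPM in wild type, highest again in tert+/- replicates 4 and 5 and next in wild type replicate 1. The part of this in the result was not tested. The Sertoli genes dmrt1 (−0.01, SE 1.16) and gsdf (−0.17, SE 0.49) stood near 0 on the log2 scale in this comparison. Both were also present in wild type replicates 1 and 3. The remaining Sertoli gene, amh, stood at 0.85 (SE 0.63). Of the other Leydig and steroid genes, star stood at 2.21 (SE 1.15), cyp11c1 at 1.21 (SE 0.88), hsd17b3 at 0.20 (SE 0.35) and hsd3b1 at −0.52 (SE 0.62).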

How the data were processed

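RNA of 13 muscle samples was made into libraries with a TruSeq RNA kit (Illumina). The submitters' processing notes name bcl2fastq 1.8.4, the aligner STAR 2.4.1d, the counter featureCounts 1.4.6-p4 and the GRCz10 genome. For the annotation release and the strand setting, nothing is given in the sources used here. The deposited counts are whole, unnormalized reads per gene. The deposited RPKM values were used only for gene lengths. They gave 1 length per gene only if the 13 library totals were applied in turn down the table (highest CV 0.0563% over 2227 genes, against a median of 67.8% with own totals), and that length served here.

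Symbols came from a gene name table that covered 81.8% of identifiers. Plain CPM used library totals. Ratios have exact 95% binomial intervals (scipy 1.17.1). The main test was edgeR 4.0.16's quasi-likelihood test with TMM factors and all 13 samples in 1 fit, with Benjamini-Hochberg adjustment over all genes. DESeq2 1.42.0, other factors, no filter, the compared genotypes alone and left-out libraries were alternatives. Members and gene lists were chosen with earlier results of these data known. All members are named, with the most abundant genes of each wider list. Replicate numbers follow the order of sample records. The p-values measure the spread between samples of the same genotype. No sequences are shown.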

Additional observations from a re-analysis of the deposited data

Results flagged for a closer look

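In groups of 5 libraries, a library was looked at again where its gap to the nearest other library was large against the range of its genotype (above Dixon's 95% critical value). With normally distributed values chance alone does this in about 1 of 20 groups, but plain CPM need not be so distributed. The genes were counted in the same libraries, so their flags are not separate events. The 3 tert-/- libraries were not looked at in this way. Among wild types the library was always replicate 5, at 29.2 CPM of insl3, 20.4 of star, 10.96 of cyp17a1, 3.40 of cyp11c1, 1.61 of hsd3b1, 13.5 of amh, 29.6 of dmrt1 and 25.03 of gsdf. Among tert+/- fish it was always replicate 1, at 28.95 CPM of insl3, 17.5 of star, 10.2 of cyp17a1, 8.24 of cyp11c1, 20.6 of amh, 122.4 of dmrt1 and 106.1 of gsdf. For hsd3b1 in tert+/- and for hsd17b3 in both genotypes no library stood apart in this way.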

How the results depend on the processing

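No paired analysis was possible because the replicate numbers follow the order of the sample records and pair no fish. No member was called under any alternative, and 37 of 338 fold changes of members changed sign. When 1 library was left out, the log2 fold change in tert-/- against wild type ran from −6.90 to 8.57 for insl3, −4.07 to 4.91 for star, −6.01 to 7.70 for cyp17a1, −1.18 to 3.75 for cyp11c1, −1.20 to 3.39 for hsd3b1, −3.52 to 3.86 for amh, −2.47 to 2.96 for dmrt1 and −1.60 to 1.63 for gsdf, lowest without tert-/- replicate 1 and highest without wild type replicate 5. In tert+/- against wild type it ran from −1.74 to 5.88 for insl3, −1.22 to 3.09 for star, −2.60 to 4.99 for cyp17a1, −0.30 to 2.28 for cyp11c1, −2.10 to 2.92 for amh, −1.56 to 2.54 for dmrt1 and −0.80 to 1.32 for gsdf, between the fits without tert+/- replicate 1 and without wild type replicate 5, and from −0.0447 to 0.56 for hsd17b3. With no change of sign, it ran from −0.99 (without tert-/- replicate 2) to −0.39 (without tert-/- replicate 1) for hsd17b3 in tert-/-, with −0.44 without wild type replicate 1, and from −1.35 (without tert+/- replicate 5) to −0.24 (without wild type replicate 5) for hsd3b1 in tert+/-. Without the 3 ddx4-high libraries the signs turned in tert-/- for insl3 (−0.76), star (−0.70), cyp17a1 (−0.51), hsd3b1 (−0.47), amh (−0.64), dmrt1 (−0.98) and gsdf (−1.01), and in tert+/- for insl3 (4.44), star (2.21), cyp17a1 (2.96), amh (0.85), dmrt1 (−0.011) and gsdf (−0.17). Without factors, which moved the median of all genes to 0.49 in tert-/- and 0.29 in tert+/-, tert+/- values turned for insl3 (0.25), star (0.14), cyp17a1 (0.0585) and amh (0.66). RLE factors, DESeq2 (which gave no p for 5 of the 9 genes), no filter and the compared genotypes alone turned none, and with the compared genotypes alone 2 of the 9 genes were filtered out.

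Ratios are given for the ddx4-high wild type, tert+/- and tert-/- library in that order. Per sycp3 the Leydig and steroid genes gave 1.62, 0.499 and 2.32 and the Sertoli genes 1.61, 1.66 and 1.75. Per piwil1 the Leydig ratio moved to 0.373 in tert+/- and 0.590 in tert-/-, and the Sertoli ratio to 1.24 and 0.446. Per ddx4 without insl3 the Leydig ratios were 0.338, 0.256 and 0.391, and without dmrt1 the Sertoli ratios were 0.331, 0.703 and 0.322. Leaving out hsd17b3, chosen after seeing the data, gave 0.364 in tert+/-. Of the 3 genes most like insl3 and amh, 0 were shared with a pseudocount of 0.1, and with 1 there were 2 for insl3 and 1 for amh. A limit of 10 CPM of ddx4 gave the same 3 libraries. Depth limits hsd3b1 in the ddx4-high wild type and tert+/- libraries, which held 17 and 13 counts.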
